A study of Mus musculus with 23 samples.

Results

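The genes described here are the 37 genes of glucose entry, glycolysis, pyruvate and NADH handling, and glycogen metabolism in mouse skeletal muscle, measured by RNA-seq in muscle that kept its nerve and muscle that was denervated. They were chosen by symbol as enzymes, transporters and regulators, with earlier results of these data known. They are 37 of 54446 genes in the raw count table. All 37 passed the filter on low counts. Each symbol matched 1 gene identifier except Aldoa, which matched 2. The first set of libraries came from 3 groups of 3: innervated muscle of WT mice, muscle of WT mice denervated for 10 days, and muscle of PAX4 KO mice denervated for 10 days. The second set held only muscle denervated for 10 days: WT mice labelled WT con (2 libraries), mice labelled NRF1 KD (3 libraries, genotype given as NRF1PAL KD) and mice labelled NRF1-PAX4 double KD (3 libraries). PAX4 and NRF1 (alpha-PAL) are transcription factors, and the series is about how several such factors control proteasome genes. The labels do not name the muscle, the age of the mice, the alleles or the cells in which a gene was removed, and nothing says whether the replicates were separate animals, so the p-values may reflect only technical spread.

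Glucose enters a muscle fibre through the transporters GLUT4 and GLUT1 and is trapped by hexokinase. Glycolysis then splits it into pyruvate, which lactate dehydrogenase turns into lactate or pyruvate dehydrogenase passes to the mitochondria, while glycogen phosphorylase feeds in glucose units from the stored polymer. Fast muscle fibres are known for high levels of these enzymes, often as muscle-specific forms (Pfkm, Pgam2, Eno3) beside forms found in most cells (Pfkl, Pgam1, Eno1).

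Depth ran from 21716216 to 42821396 counts per library in the first set and from 23740769 to 30165765 reads recovered from the deposited values in the second. Each library held abundant muscle mRNAs: Acta1, the skeletal muscle actin, lay between 20060 and 28060 CPM (counts scaled to a common effective library size) in the first set. No read was counted for Pax4 in any of the first set's 9 libraries (0 counts; the limit of 3 counts is 0.0701 to 0.138 CPM, for counting error only), so its mRNA could not check the PAX4 KO label. Normalised counts of Nrf1 were 488 and 444 in WT con, 499, 476 and 524 under the NRF1 KD label and 450, 427 and 454 under the double KD label. The Nrf1 mRNA thus did not fall under the NRF1 KD label, and these groups are named by their labels only. Innervated WT library 2 stood apart, with Chrng, the fetal acetylcholine receptor subunit that returns after denervation, at 15.95 CPM against 0.197 and 0.105 CPM in libraries 1 and 3. Denervated WT library 1 also stood apart, with Trim63, a muscle ubiquitin ligase, at 255 CPM against 630 and 607 CPM in libraries 2 and 3. Results that change without these libraries are given both ways.

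Denervation for 10 days was accompanied by lower mRNA of most of these genes. In denervated against innervated WT muscle 23 of the 37 members fell, 2 rose (Slc2a1 and Pfkl) and 12 did not pass the test, where a gene is called when its adjusted p is below 0.05 (edgeR quasi-likelihood test, Benjamini-Hochberg over 16146 genes). Over all genes tested 15.8% were called lower and 16.5% higher. The median log2 fold change was -0.72 over the members and 0.02 over all genes tested. All 3 denervated libraries lay below all 3 innervated libraries for 27 members and above them for 2, against 22.6% and 23.9% of all genes. Leaving out both libraries that stood apart gave 22 lower and 3 higher members. By role, 7 of 9 glycogen genes, 6 of 8 genes of lower glycolysis, 5 of 9 of upper glycolysis, 4 of 7 of pyruvate and NADH handling and 1 of 4 of glucose entry fell.

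Together the 37 genes took 4.74, 4.76 and 4.90% of all counts in the innervated libraries, 2.95, 2.90 and 3.13% in denervated WT and 2.76, 2.44 and 2.90% in denervated PAX4 KO. The 3 innervated libraries were the highest, and the ranges of the innervated and denervated libraries did not overlap. Aldoa alone made up 1.21 to 1.35% of the counts of innervated muscle. The denominator of these shares includes mitochondrially encoded transcripts, which took 28.7 to 29.5% of the counts in innervated muscle, 18.4 to 23.4% in denervated WT and 14.5 to 19.7% in PAX4 KO.

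**Figure D1:**
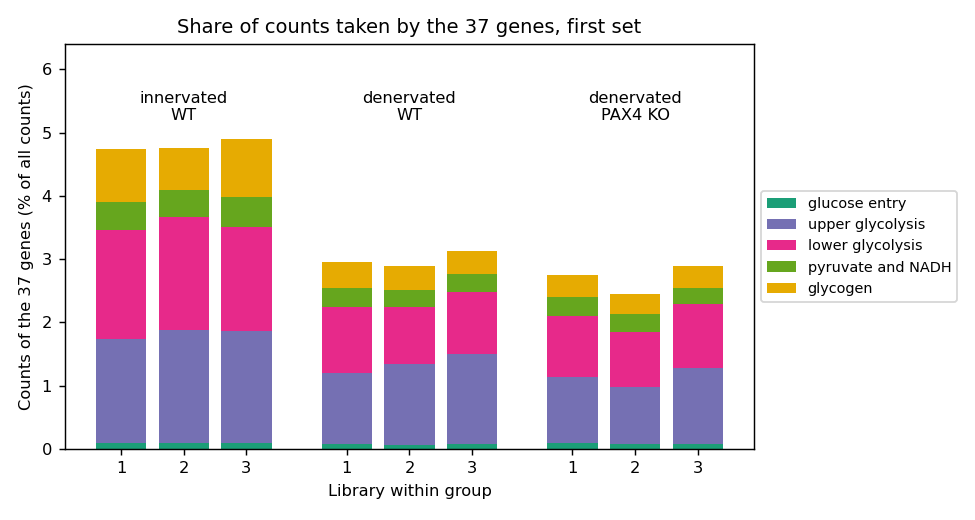
Share of all counts taken by the 37 genes in each of the 9 libraries of the first set (bars, percent), stacked by role. The innervated bars reach 4.74 to 4.90% and the denervated WT bars 2.90 to 3.13%, with the lower and upper glycolysis genes as the largest blocks in all 9.

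Levels between genes were compared as the mean CPM per kilobase of exon in innervated WT muscle. Aldoa, the muscle aldolase, was highest at 5286, followed by Eno3 at 3419, Pgam2 at 2602, Pygm at 1808, Gapdh at 1443 and Pfkm at 1262 CPM per kilobase. At the other end Slc2a1 stood at 2.81, Hk1 at 2.24, Pfkl at 1.88 and Pfkp at 1.14 CPM per kilobase. The genes that rose on denervation, Slc2a1 and Pfkl, were thus among the 4 lowest of the 37 in innervated muscle.

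At glucose entry the 2 transporters moved in opposite directions. Slc2a4 (GLUT4, the insulin-responsive transporter of muscle; chr11:69942539-69948188, GRCm38) stood at 737, 683 and 785 CPM in innervated muscle and at 331, 284 and 371 CPM in denervated WT. Its log2 fold change was -1.16 ± 0.17 (SE; adjusted p = 0.000934), a 2.24-fold fall with no overlap between the groups. Slc2a1 (GLUT1, the basal transporter; chr4:119108711-119137983) stood at 9.61, 10.4 and 9.52 CPM in innervated muscle and at 18.01, 16.4 and 19.5 CPM in denervated WT. It rose 1.82-fold (log2 fold change 0.86 ± 0.11, adjusted p = 0.000453), and every denervated library exceeded every innervated one. Per exon length Slc2a1 was still the lower of the pair, at a mean of 5.12 against 94.5 CPM per kilobase for Slc2a4 in denervated WT. Neither hexokinase passed the test: the log2 fold change was -0.30 (adjusted p = 0.106) for Hk1 and -0.25 (adjusted p = 0.278) for Hk2, the main hexokinase of muscle, and both signs turned when libraries were scaled by total counts (0.02 and 0.07).

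In upper glycolysis the muscle form of the committing enzyme fell and the liver form rose. Pfkm (muscle phosphofructokinase; chr15:98092589-98132451) stood at 4045, 4076 and 4527 CPM in innervated muscle and at 1514, 1393 and 1294 CPM in denervated WT, a log2 fold change of -1.59 ± 0.17 (adjusted p = 0.00025). Pfkl (liver-type phosphofructokinase; chr10:77986947-78010083) went from 11.7, 14.2 and 11.7 CPM to 21.1, 16.9 and 19.2 CPM, for a log2 fold change of 0.60 ± 0.15 (adjusted p = 0.0118). Innervated and denervated libraries did not overlap for either gene, but the call for Pfkl was lost without innervated library 1 (adjusted p = 0.0517) or 3 (adjusted p = 0.0502). Pfkp, the platelet form, lay between 13.7 and 16.4 CPM in innervated and between 10.1 and 18.2 CPM in denervated muscle and was not called (adjusted p = 0.53). Its sign, -0.19, turned to 0.14 under scaling by total counts.

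The bifunctional enzymes that make and break down fructose 2,6-bisphosphate, the activator of phosphofructokinase, were lower where they passed the test. Pfkfb1 stood at 70.0, 56.4 and 68.5 CPM in innervated muscle and at 17.8, 13.1 and 13.9 CPM in denervated WT, a log2 fold change of -2.12 ± 0.26 (adjusted p = 0.000424). Pfkfb3 was uneven: 352, 196 and 423 CPM in innervated libraries 1 to 3 and 71.6, 196 and 106 CPM in the denervated ones. Innervated library 2 and denervated library 2 were nearly level, at 196.3 and 196.1 CPM. The log2 fold change of Pfkfb3 was -1.38 ± 0.40 (adjusted p = 0.025), and it missed the threshold without innervated library 1 (adjusted p = 0.0687) or 3 (0.0896) or denervated library 1 (0.0709) or 3 (0.0816). Pfkfb4 was just outside the threshold, at -0.35 ± 0.12 (adjusted p = 0.0509), and passed it without innervated library 2 (adjusted p = 0.0299).

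Fbp2, the muscle fructose-1,6-bisphosphatase that runs the opposing reaction, had the largest log2 fold change of upper glycolysis. It stood at 31.2, 25.99 and 49.1 CPM in innervated muscle and at 7.39, 5.51 and 6.78 CPM in denervated WT (log2 fold change -2.43 ± 0.28, adjusted p = 0.000329). Gpi1, glucose-6-phosphate isomerase, had 720, 716 and 735 against 474, 575 and 585 CPM, with a log2 fold change of -0.41 ± 0.13 (adjusted p = 0.0352). Its call was lost when any 1 of the 6 libraries was left out, with adjusted p from 0.054 to 0.106. Aldoa (chr7:126795234-126800751) stood at 14672, 15830 and 15661 CPM in innervated and at 8259, 10823 and 11630 CPM in denervated WT muscle. These groups did not overlap, yet the change of -0.59 ± 0.22 missed the threshold (adjusted p = 0.0609). DESeq2 called it (adjusted p = 0.013). The second identifier under the name Aldoa, a neighbouring gene model at chr7:126800790-126809108, was far lower, at 24.3 to 40.3 CPM in innervated and 5.93 to 7.13 CPM in denervated muscle, and is not counted among the 37.

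In lower glycolysis every member that passed the test was lower, and the 2 that did not were the forms found outside muscle. Tpi1, triosephosphate isomerase, stood at 2386, 2166 and 2194 CPM in innervated and at 748, 589 and 524 CPM in denervated WT muscle (log2 fold change -1.86 ± 0.16, adjusted p = 0.000116). Eno3 (beta enolase, the muscle form; chr11:70657202-70662513) stood at 6361, 5567 and 5910 CPM against 2114, 1640 and 1500 CPM (log2 fold change -1.76 ± 0.18, adjusted p = 0.000211). Pgam2, the muscle phosphoglycerate mutase, fell by 1.17 on the log2 scale, from 2211, 2185 and 2160 to 1026, 827 and 1057 CPM (adjusted p = 0.00107). For all 3 genes the denervated libraries sat at less than 0.5 of the lowest innervated library. Gapdh, Pgk1 and Pkm, the dehydrogenase and the kinases that yield NADH and ATP, fell less, by 0.82, 0.81 and 0.69 on the log2 scale (adjusted p = 0.00566, 0.00103 and 0.00773). Gapdh, often used as a reference transcript, thus stood at 5965 ± 690 CPM in innervated and 3371 ± 266 CPM in denervated WT muscle (SD, n = 3). Pgam1 had 22.7, 28.2 and 21.6 against 36.6, 26.3 and 28.3 CPM and Eno1 61.3, 57.8 and 52.5 against 90.0, 59.1 and 73.1 CPM. Neither was called (adjusted p = 0.184 and 0.0757), and Eno1 passed without denervated library 2 (adjusted p = 0.0247).

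Among the genes that handle pyruvate and NADH, Gpd1, the cytosolic glycerol-3-phosphate dehydrogenase, had the largest log2 fold change of all 37 members. Gpd1 (chr15:99717515-99725005) stood at 513, 379 and 488 CPM in innervated muscle and at 90.3, 67.9 and 57.9 CPM in denervated WT. That is a 6.39-fold fall (log2 fold change -2.67 ± 0.20, adjusted p = 6.86e-05). Its mitochondrial partner in the glycerol phosphate shuttle, Gpd2, fell by 0.98 on the log2 scale, from 221, 167 and 247 to 89.7, 120 and 113 CPM (adjusted p = 0.00383). Ldha, the lactate dehydrogenase subunit of fast muscle, stood at 2761, 2433 and 2586 CPM against 973, 788 and 835 CPM (log2 fold change -1.58 ± 0.15, adjusted p = 0.000121). Ldhb, the heart-type subunit, lay between 139 and 197 CPM in innervated and between 133 and 158 CPM in denervated muscle, with overlapping libraries (log2 fold change -0.14, adjusted p = 0.56). The sign for Ldhb turned under scaling by total counts (0.17), without innervated library 2 (0.02) and without both libraries that stood apart (0.09).

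The entry of pyruvate into the mitochondria showed smaller differences. Pdha1, the E1 alpha subunit of pyruvate dehydrogenase, had 626, 647 and 661 against 427, 511 and 440 CPM, and its log2 fold change was -0.49 ± 0.14 (adjusted p = 0.0206). This call was lost without innervated library 1 (adjusted p = 0.0519) or 3 (0.061), without denervated library 1 (0.0618) or 3 (0.0711), and without both libraries that stood apart (0.0735). Pdhb, the E1 beta subunit, was not called (-0.23, adjusted p = 0.205), nor was Pdk4, the kinase that switches the complex off. Pdk4 had 762, 772 and 1395 CPM in innervated and 868, 911 and 871 CPM in denervated WT muscle. Innervated library 3 was the highest of these 6, and without it the log2 fold change of Pdk4 went from -0.14 to 0.20 (adjusted p = 0.632).

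The mRNAs of glycogen phosphorylase and of the kinase that activates it fell. Pygm (muscle glycogen phosphorylase; chr19:6384399-6398459) stood at 6128, 4506 and 6824 CPM in innervated and at 1570, 1847 and 1788 CPM in denervated WT muscle, a 3.35-fold fall (log2 fold change -1.75 ± 0.20, adjusted p = 0.000329). Of phosphorylase kinase, which activates it, the muscle catalytic subunit Phkg1 went from 501, 360 and 535 to 117, 112 and 108 CPM (log2 fold change -2.05 ± 0.19, adjusted p = 0.00012). Phka1, its muscle alpha subunit, fell by 1.52 on the log2 scale (adjusted p = 0.000859), with innervated library 2 at 469 CPM below the 770 and 758 CPM of libraries 1 and 3. Phkb, the shared beta subunit, had 468, 297 and 446 against 236, 294 and 232 CPM, so that innervated library 2 and denervated library 2 nearly met. The call for Phkb (-0.67 ± 0.18, adjusted p = 0.0161) was lost without innervated library 1 (adjusted p = 0.0672) or 3 (0.0578) or denervated library 3 (0.0608).

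Among the genes of glycogen synthesis 3 of 5 fell. Gys1, muscle glycogen synthase, stood at 467, 574 and 569 CPM against 357, 300.1 and 322 CPM (log2 fold change -0.72 ± 0.17, adjusted p = 0.00881). Its call was lost when libraries were scaled by total counts (adjusted p = 0.0656). Gbe1, the branching enzyme, was the only one of the 9 glycogen members with a positive log2 fold change (0.26, adjusted p = 0.267). Gbe1 passed the test without both libraries that stood apart (0.54, adjusted p = 0.0316). Ugp2, which makes the UDP-glucose that the synthase uses, overlapped between the groups (-0.41, adjusted p = 0.106) and passed without denervated library 1 (adjusted p = 0.0499). Of the subunits that bring protein phosphatase 1 to glycogen, where it activates the synthase, Ppp1r3a and Ppp1r3c fell, while Ppp1r3b (-0.42), Ppp1r3d (-0.36), Ppp1r3e (-0.05) and Ppp1r3f (0.19) of the other pathway genes were not called. Ppp1r3a, the striated muscle subunit, went from 416, 303 and 403 to 147, 153 and 122 CPM (log2 fold change -1.41 ± 0.20, adjusted p = 0.000692). Ppp1r3c (also called PTG; chr19:36731737-36736653) went from 433, 357 and 712 to 191, 151 and 155 CPM (log2 fold change -1.60 ± 0.26, adjusted p = 0.00143).

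**Figure D2:**
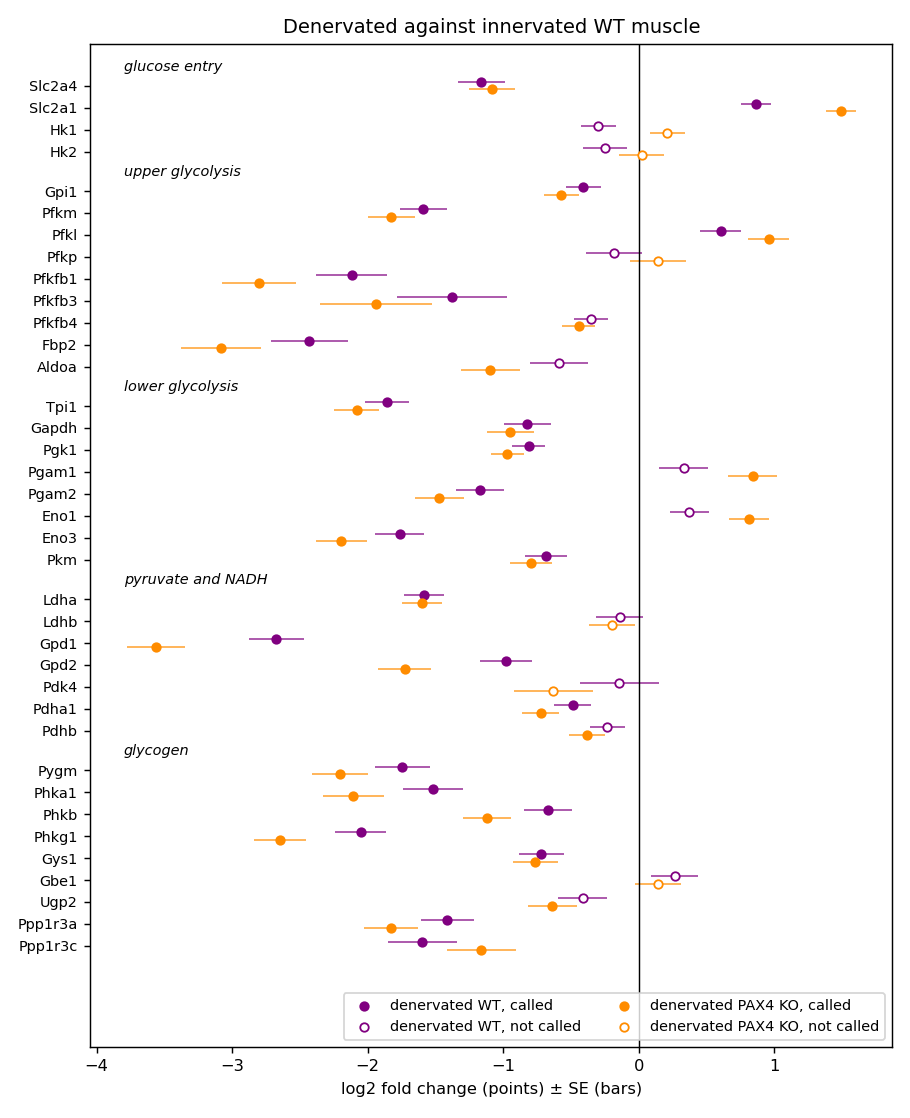
Log2 fold change of each of the 37 genes against innervated WT muscle (points, with SE as bars) in denervated WT (purple) and denervated PAX4 KO (orange), by role, filled where adjusted p was below 0.05. Slc2a1 and Pfkl lie right of 0 and filled in both, 23 genes lie left of 0 and filled in WT, and under scaling by total counts Hk1, Hk2, Pfkp, Ldhb, Pdk4 and Pdhb change sign in WT and Pfkfb4, Pdhb and Ldhb in PAX4 KO, where Hk2 (not called) also does under DESeq2.

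Ratios between paired forms within a library do not depend on how libraries are scaled, and 8 were compared. In 6 of them the first-named gene lost ground on denervation, with no overlap between the libraries. Pfkm enters 2 of these 6 ratios, and Gpd1 and Gpd2 are partner enzymes of a shuttle rather than forms of the same enzyme. The count ratio of Pfkm to Pfkl was 347, 287 and 388 in innervated and 71.8, 82.6 and 67.4 in denervated WT muscle. Eno3 to Eno1 went from 104, 96.3 and 113 to 23.5, 27.7 and 20.5. Ldha to Ldhb went from 19.9, 12.3 and 16.6 to 7.33, 5.09 and 5.28. The log2 differences were -2.20 for Pfkm to Pfkl, -2.13 for Eno3 to Eno1, -1.72 for Gpd1 to Gpd2, -1.51 for Pgam2 to Pgam1, -1.46 for Ldha to Ldhb and -1.36 for Pfkm to Pfkp. Each gave p = 0.1 in an exact two-sided permutation test, the smallest that 3 against 3 libraries allow, and p = 0.133 after adjustment over the 8 ratios. Hk2 to Hk1 (0.06, exact p = 0.8) and Pfkfb1 to Pfkfb3 (-0.70, exact p = 0.4) overlapped. Per exon length, the muscle forms still prevailed after denervation: Eno1 made up 0.286 to 0.335% of the 2 enolase levels in innervated and 1.15 to 1.55% in denervated WT muscle, and Ldhb 9.57 to 14.6% and 22.3 to 29.3% of the 2 lactate dehydrogenase levels.

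**Figure D3:**
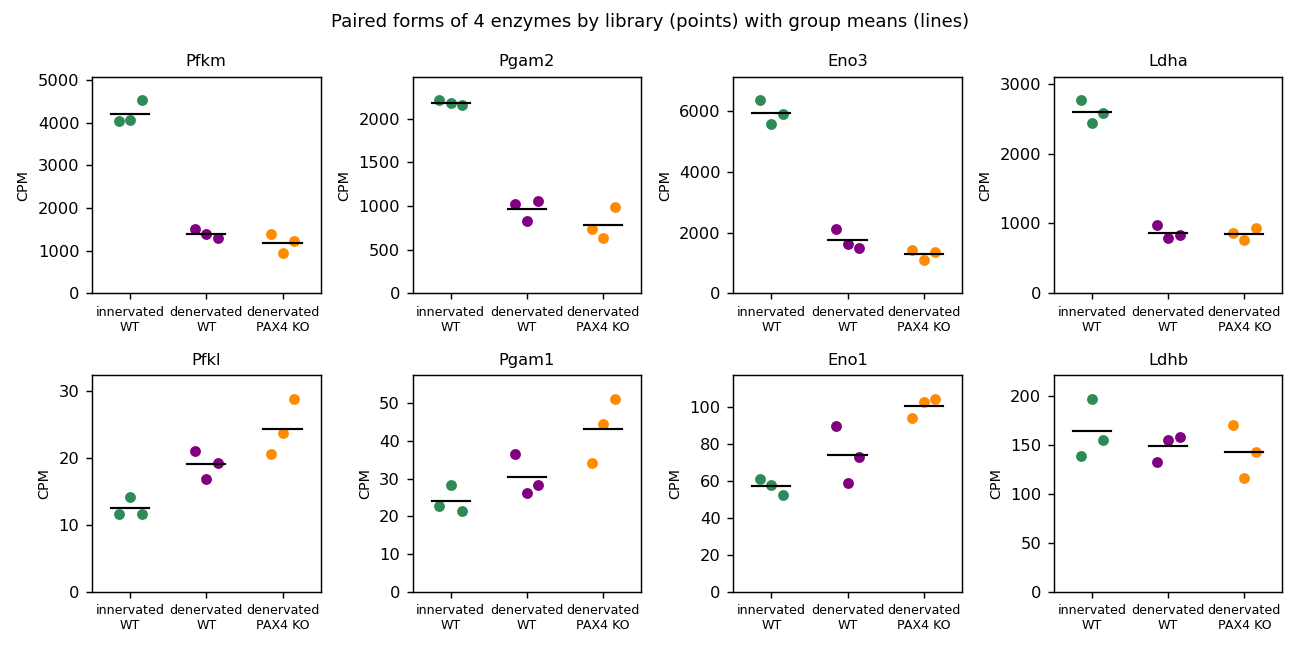
CPM of 4 muscle forms (top) and their partner forms (bottom) in each library of the first set (points) with group means (lines). The muscle forms Pfkm, Pgam2, Eno3 and Ldha drop between innervated and denervated libraries without overlap, while Ldhb lies between 116 and 197 CPM throughout and its sign against innervated muscle depends on scaling.

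Markers of other cell types moved with denervation too. The summed level of 13 macrophage markers ranged from 123 to 384 CPM in innervated, from 454 to 926 CPM in denervated WT and from 826 to 1455 CPM in PAX4 KO muscle, with none at 0, and 10 of 13 rose in denervated WT. The 12 fast fibre markers summed to 97390 to 126500 CPM in innervated, 66510 to 79380 CPM in denervated WT and 48190 to 65900 CPM in PAX4 KO muscle, and 7 of 12 fell and 2 rose in denervated WT. The 9 slow fibre markers summed to 196 to 377 CPM in innervated, 385 to 467 CPM in denervated WT and 461 to 530 CPM in PAX4 KO, so that every denervated library lay above the innervated ones, with 3 of 9 called higher in denervated WT. Of 8 endothelial markers, 6 fell, from a sum of 804 to 890 CPM to 443 to 594 CPM. Of 7 smooth muscle and pericyte markers, 6 fell, from 1027 to 1321 CPM to 589 to 706 CPM, and of 7 adipocyte markers, 4 fell, from 463 to 480 CPM to 280 to 348 CPM. The 7 neutrophil markers summed to 3.52 to 5.73 CPM in innervated and 24.1 to 132 CPM in denervated WT, with 1 of 5 tested called higher. Erythrocyte markers overlapped, at 444 to 1332 and 354 to 554 CPM, with 1 of 5 called lower. The 8 Schwann cell markers summed to 135 to 216 CPM in innervated and 35.7 to 50.4 CPM in denervated WT muscle, and 4 of 8 fell. Their part in the results on glucose genes was not tested, and in whole muscle fewer cells of a type and less mRNA per cell cannot be told apart.

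Of 56 other genes of the same pathways, 52 were tested: 19 fell, 4 rose and the median log2 fold change was -0.34. Slc16a3, the MCT4 transporter through which glycolytic muscle exports lactate, had the lowest adjusted p of them. It stood at 300, 323 and 325 CPM in innervated and at 52.7, 24.1 and 23.2 CPM in denervated WT muscle (log2 fold change -3.24 ± 0.29, adjusted p = 0.000116). Bpgm, which makes 2,3-bisphosphoglycerate, fell by 1.47, Pdpr, a subunit of pyruvate dehydrogenase phosphatase, by 1.23 and Tigar, a fructose-2,6-bisphosphatase, by 2.09 on the log2 scale (adjusted p = 0.000184, 0.000209 and 0.000295). Stbd1, which tethers glycogen to membranes, rose 2.65-fold (adjusted p = 0.001), from 58.3, 94.4 and 57.6 to 172, 194 and 192 CPM. The non-muscle subunits of phosphorylase kinase, Phka2 and Phkg2, rose 1.52-fold and 1.35-fold (adjusted p = 0.00608 and 0.0302), in contrast to Phka1 and Phkg1 above. The Phkg2 call was lost without innervated library 1 or 3 or denervated library 2 or 3 (adjusted p from 0.066 to 0.11). Slc2a5, a fructose transporter, also rose, but from at most 0.0822 CPM to at most 1.39 CPM. Of 21 regulators of glucose genes, 11 fell and 3 rose. Beside both lists, 15.8% of all genes tested were called lower and 16.5% higher.

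Between denervated PAX4 KO and denervated WT muscle no member passed the test. The edgeR fit called 0 of 37 in either direction, 15 (40.5%, against 12.9% of all genes) had an unadjusted p under 0.05, and the median log2 fold change was -0.16. Of the 37 log2 fold changes 28 were negative (75.7%, against 49.0% of all genes), and 18 were when libraries were scaled by total counts. Over all genes the same fit called 0.0186% higher and 0.0% lower. Libraries did not overlap for 9 members that were lower and 3 that were higher in PAX4 KO, against 7.23% and 9.69% of all genes. Other ways of testing gave a few calls: DESeq2 called Slc2a1 higher and Gpd1 and Gpd2 lower, and edgeR without the filter on low counts called these and Pfkfb1. The share of all genes that these alternatives called is not reported here, so their calls cannot be read against a background.

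Slc2a1 stood at 28.1, 25.5 and 29.7 CPM in PAX4 KO, above all 3 denervated WT libraries (log2 difference 0.63 ± 0.11, edgeR adjusted p = 0.153, DESeq2 adjusted p = 0.00274). Gpd1 stood at 41.2, 31.4 and 44.0 CPM, below all of them (-0.89 ± 0.20, edgeR adjusted p = 0.24, DESeq2 adjusted p = 0.00162). Gpd2 at 60.7, 52.5 and 78.5 CPM also lay below (-0.75 ± 0.19, edgeR adjusted p = 0.264, DESeq2 adjusted p = 0.0153). For these 3 genes none of the 3 groups overlapped another, and PAX4 KO lay farthest from innervated muscle. Pfkfb1 overlapped, with PAX4 KO library 1 at 14.2 CPM and libraries 2 and 3 at 6.33 and 7.33 CPM. The macrophage marker sums given above were higher in 2 of 3 PAX4 KO libraries than in any denervated WT library, with 0 of 13 markers called and a median log2 difference of 0.88. The 8 fibroblast markers summed to 2873 to 8449 CPM in PAX4 KO and 1763 to 2364 CPM in denervated WT, with 0 of 8 called. Their part in these differences was not tested.

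**Figure D4:**
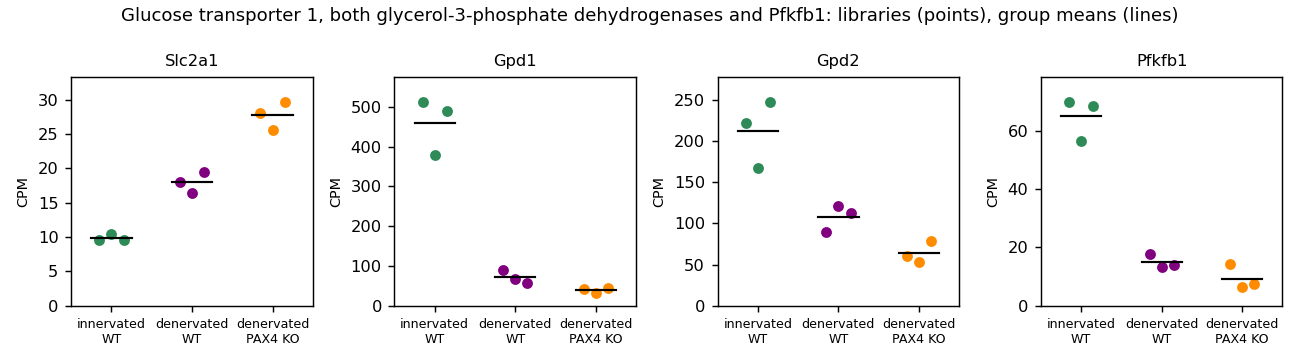
CPM of Slc2a1, Gpd1, Gpd2 and Pfkfb1 in each library of the first set (points) with group means (lines). The PAX4 KO libraries of Slc2a1 lie at 25.5 to 29.7 CPM, above denervated WT, those of Gpd1 and Gpd2 lie below it, and those of Pfkfb1 overlap it.

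Against innervated WT muscle, denervated PAX4 KO muscle had 27 members lower and 4 higher (18.2% and 21.8% of all genes), with a median log2 fold change of -0.97 against 0.05 over all genes. Its libraries did not overlap for 27 lower and 4 higher members, against 23.3% and 29.0% of all genes. This comparison shares its innervated libraries with that of denervated WT. The 4 that rose were Slc2a1 (1.49 ± 0.11, adjusted p = 3.08e-05), Pfkl (0.96 ± 0.15, adjusted p = 0.000932), Pgam1 (0.84 ± 0.18, adjusted p = 0.00465) and Eno1 (0.82 ± 0.15, adjusted p = 0.00204). All 4 are forms that are not restricted to muscle. Pgam1 stood at 34.1, 44.6 and 51.3 CPM and Eno1 at 94.2, 103 and 105 CPM in PAX4 KO, above every innervated library. Gpd1 fell 11.8-fold (-3.56 ± 0.21, adjusted p = 1.7e-05), Fbp2 8.49-fold (adjusted p = 9.65e-05) and Pfkfb1 6.98-fold (adjusted p = 0.000101). Aldoa, at 7061, 5505 and 9039 CPM, fell by 1.10 on the log2 scale (adjusted p = 0.00338). Slc2a4 stood at 433, 290 and 317 CPM and fell by 1.08 (adjusted p = 0.000995), and Ppp1r3c at 226, 173 and 272 CPM fell by 1.16 (adjusted p = 0.00512), and for both genes the PAX4 KO libraries overlapped denervated WT. Pfkfb4, Pdhb and Ugp2 were called lower here but lost the call without single libraries: without innervated library 1 their adjusted p was 0.0652, 0.0624 and 0.0537. The same held without PAX4 KO library 2 (0.058, 0.124 and 0.0619), for Pdhb and Ugp2 without PAX4 KO library 3 (0.0868 and 0.0527) and for Pdhb without innervated library 2 (0.111). Gpi1, Gys1 and Pdha1 lost theirs under scaling by total counts (adjusted p = 0.454, 0.137 and 0.0618). Of the 52 other pathway genes tested, 22 fell and 8 rose, with Slc16a3 (-3.30, adjusted p = 6.89e-05) and Bpgm (-1.89, adjusted p = 4.56e-05) lower and Stbd1 (1.33, adjusted p = 0.001) and Phka2 (0.67, adjusted p = 0.00285) higher.

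In the ratios of paired forms, PAX4 KO differed from denervated WT without overlap in 2 of 8. Eno3 to Eno1 was between 10.6 and 15.4 in PAX4 KO (log2 difference -0.89) and Pgam2 to Pgam1 differed by -0.82. Both had an exact permutation p = 0.1, the smallest possible, and p = 0.4 after adjustment over the 8 ratios.

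The second set compared denervated muscle labelled NRF1 KD, alone or with PAX4, with denervated WT con muscle. The Nrf1 mRNA did not fall under the NRF1 KD label and overlapped WT con under the double KD label. It thus did not bear these labels out, and the word knockdown below follows the labels only. Its values are the authors' variance-stabilised log2 values turned back into normalised counts, and tests used limma on log2(normalised count + 1), on which scale fold changes of low genes are understated. In the libraries labelled NRF1 KD, 4 of 37 members rose against WT con and 0 fell, where 7.58% of all genes were called higher and 3.72% lower. The median log2 fold change was -0.03 over the members and 0.00 over all genes. Libraries did not overlap for 9 higher and 8 lower members, against 22.5% and 23.4% of all genes. The members called were Pfkl, Pfkp, Eno1 and Ppp1r3c. With 0 called lower by limma, 12 of 37 members (32.4%) had an unadjusted p under 0.05 in either direction, near the 27.6% of all genes. The authors' deposited table, from their own DESeq2 test, listed 6 members higher and 2 lower at an adjusted p below 0.05 in this comparison. The higher ones were Hk1, Pfkl, Pfkp, Eno1, Ldha and Ppp1r3c, and the lower ones Aldoa and Gpd2. Aldoa, which limma called in neither knockdown group, ranged from 412950 to 457420 normalised counts in WT con. It ranged from 319690 to 370270 in NRF1 KD and from 321800 to 336120 in double KD. Of all genes in the authors' deposited table, 9.70% were higher and 5.40% lower, so the members' count of 2 lower is near the background.

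RefSeq upstream sequence (GRCm38.p6) was matched by symbol for 35 of the 37 members, at 51 start sites. In the 250 bases before each start, both strands were searched for 3 motifs that do not overlap one another. These were the NRF1 motif (GCGC, any 2 bases, GCGC), the E-box (CACGTG) and a loose MEF2-like pattern (CTA, any 4 bases, TAG). The 4 middle bases of that pattern were not required to be A or T, so a match need not be a MEF2 site. The NRF1 motif was found at 3 of 51 starts of members (5.9%) and at 4.98% of 32851 starts of all genes. The E-box was found at 5 (9.8%) and 6.02%, and the MEF2-like pattern at 3 (5.9%) and 3.2%. Members with the NRF1 motif were Aldoa, Eno1 and Ldha. The 4 sequences below are shown because Eno1 and Ppp1r3c were called in the NRF1 KD libraries, while Ldha and Ldhb are the pair whose muscle form fell and whose heart form did not pass the test on denervation. They run 5′ to 3′ on the gene's strand, end at the base before the annotated start, and carry the motif in capitals. The Eno1 window is chr4:150236458-150236707 (plus strand, NRF1 motif beginning 47 bases before the start) and that of Ppp1r3c chr19:36736605-36736854 (minus strand, E-box 104 bases before). That of Ldha is chr7:46846832-46847081 (plus strand, NRF1 motif 62 bases before). That of Ldhb is chr6:142507958-142508207 (minus strand, MEF2-like matches 244 and 151 bases before), and both matches hold G or C among the 4 middle bases.
Eno1: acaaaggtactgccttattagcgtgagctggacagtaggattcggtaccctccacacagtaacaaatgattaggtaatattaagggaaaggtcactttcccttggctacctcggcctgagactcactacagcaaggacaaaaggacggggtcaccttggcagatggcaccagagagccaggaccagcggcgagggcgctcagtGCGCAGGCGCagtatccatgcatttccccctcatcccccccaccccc
Ppp1r3c: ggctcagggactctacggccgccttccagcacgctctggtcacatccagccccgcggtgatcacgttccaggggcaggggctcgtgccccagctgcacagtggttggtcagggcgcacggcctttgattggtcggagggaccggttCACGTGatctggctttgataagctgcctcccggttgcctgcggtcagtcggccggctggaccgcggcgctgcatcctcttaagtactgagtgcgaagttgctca
Ldha: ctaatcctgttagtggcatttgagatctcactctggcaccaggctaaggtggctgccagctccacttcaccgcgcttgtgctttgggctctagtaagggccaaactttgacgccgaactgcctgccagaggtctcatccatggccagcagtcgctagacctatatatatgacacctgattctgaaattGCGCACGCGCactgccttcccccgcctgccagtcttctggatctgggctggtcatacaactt
Ldhb: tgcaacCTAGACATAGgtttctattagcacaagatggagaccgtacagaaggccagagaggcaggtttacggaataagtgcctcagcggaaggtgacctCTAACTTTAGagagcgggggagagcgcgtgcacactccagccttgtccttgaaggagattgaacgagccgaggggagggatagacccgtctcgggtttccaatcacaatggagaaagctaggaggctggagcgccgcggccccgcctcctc
These letters describe the windows only. Pfkl and Pfkp, also called in the NRF1 KD libraries, held none of the 3 motifs in theirs. The other Ldha start, not shown, had no NRF1 motif but E-boxes 145 and 48 bases before it. The other Eno1 starts, also not shown, held none of the 3 motifs.

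Ppp1r3c, the glycogen-targeting subunit whose mRNA fell on denervation, was higher in both knockdown groups. It stood at 3036 and 3327 normalised counts in WT con, at 6274, 4903 and 5157 in NRF1 KD and at 5139, 6653 and 9438 in double KD. All 6 knockdown libraries exceeded both WT con libraries. The log2 fold change was 0.77 ± 0.21 in NRF1 KD (adjusted p = 0.041) and the gene was 2.16-fold higher in double KD (adjusted p = 0.0219). The NRF1 KD call was lost whichever 1 of the 5 libraries was left out (adjusted p from 0.0728 to 0.207).

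Of the phosphofructokinases, the forms found outside muscle were the ones called. Pfkl stood at 484 and 547 normalised counts in WT con, at 703, 731 and 773 in NRF1 KD and at 602, 548 and 540 in double KD (NRF1 KD log2 fold change 0.51 ± 0.11, adjusted p = 0.0191). Pfkp (chr13:6579768-6648777) stood at 187 and 256 in WT con, at 366, 477 and 504 in NRF1 KD and at 363, 320 and 229 in double KD (NRF1 KD 1.02 ± 0.23, adjusted p = 0.0184). Double KD overlapped WT con for both genes and was not called (adjusted p = 0.567 and 0.288). Pfkm, by contrast, had a log2 fold change of 0.00 in NRF1 KD (adjusted p = 0.993). Without WT con library 2, NRF1 KD library 2 or NRF1 KD library 3, the adjusted p was 0.148, 0.0576 and 0.0872 for Pfkl and 0.151, 0.0647 and 0.0823 for Pfkp.

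Eno1 (alpha enolase; chr4:150236721-150248879) stood at 1104 and 1244 normalised counts in WT con, at 1630, 2156 and 1829 in NRF1 KD and at 1586, 1550 and 1796 in double KD. Every knockdown library exceeded both WT con libraries. The log2 fold change was 0.67 ± 0.13 in NRF1 KD (adjusted p = 0.0114), lost without WT con library 2 (adjusted p = 0.0923), and 0.49 ± 0.13 in double KD (adjusted p = 0.063). Ldha had 26043 and 25786 in WT con and 35532, 36469 and 31063 in NRF1 KD (0.40 ± 0.13, adjusted p = 0.0725), and edgeR on the recovered reads called it (adjusted p = 0.0462). The count ratio of Eno3 to Eno1 was 40.9 and 41.0 in WT con and lay between 26.8 and 35.1 in NRF1 KD and between 34.2 and 38.4 in double KD, with no overlap with WT con. Exact two-sided permutation tests of the ratio gave p = 0.2 for both groups (0.32 and 0.533 after adjustment over 8 ratios), and 2 against 3 libraries cannot pass the threshold.

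**Figure D5:**
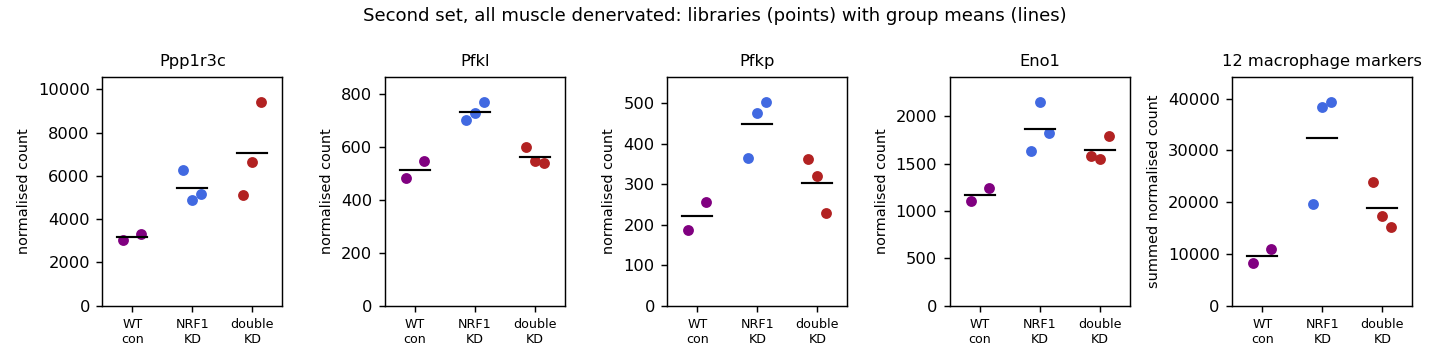
Normalised counts of Ppp1r3c, Pfkl, Pfkp and Eno1, and the summed level of 12 macrophage markers, in each library of the second set (points) with group means (lines). NRF1 KD libraries lie above both WT con libraries in all 5 panels.

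Macrophage markers were also higher in the knockdown libraries than in WT con. Their sum (12 of 13 markers listed, none at 0) ranged from 8341 to 11040 normalised counts in WT con, from 19660 to 39420 in NRF1 KD and from 15120 to 23940 in double KD, and 12 of 12 rose in NRF1 KD and 2 of 12 in double KD. The 8 fibroblast markers ranged from 23130 to 44350 in WT con and from 57340 to 89020 in NRF1 KD, with 4 of 8 called higher. The 12 fast fibre markers ranged from 2896000 to 3233000 and from 2331000 to 2804000, with 1 called lower. Their part in the higher Pfkl, Pfkp, Eno1 and Ppp1r3c was not tested.

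In the libraries labelled double KD, only Ppp1r3c of the 37 members was called against WT con, and 0 fell, where 2.39% of all genes were called higher and 1.7% lower. Libraries did not overlap for 6 higher and 9 lower members, against 18.1% and 17.6% of all genes. That call did not hold without WT con library 2 (adjusted p = 0.143) or double KD library 2 (0.0707). By limma 8 members (21.6%) had an unadjusted p under 0.05, the same share as over all genes (21.4%). The authors' deposited table listed 3 higher (Tpi1, Eno1 and Ppp1r3c) and 2 lower (Pfkfb3 and Aldoa), beside 5.02% and 3.51% of all genes in that table. Double KD against NRF1 KD gave 0 calls among the members in either direction (0.0768% and 0.0576% of all genes), with 7 (18.9%) at an unadjusted p under 0.05 by limma beside 11.2% of all genes. Here 1 higher and 5 lower members did not overlap, against 8.03% and 8.28% of all genes. Pfkfb3 was lower in all 3 double KD libraries, at 1255, 983 and 974, than in WT con (1438 and 2281) and NRF1 KD (1982, 2892 and 1761), but missed the threshold against both (-0.77, adjusted p = 0.0894, and -1.02, adjusted p = 0.104). Against NRF1 KD it passed without double KD library 1 (adjusted p = 0.0445). Pdk4 was uneven within double KD, at 16076, 7296 and 9304 against 18935 and 18413 in WT con (-0.86 ± 0.26, adjusted p = 0.0918), and passed without double KD library 1 (-1.18, adjusted p = 0.00359).

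Slc2a4 was not called in either knockdown group, with 8827 and 6954 in WT con, 7492, 6492 and 6312 in NRF1 KD and 7865, 9784 and 9512 in double KD. Apart from Eno1, the members of glucose entry, lower glycolysis and glycogen breakdown likewise missed the threshold, with Pygm at -0.12 (adjusted p = 0.603), Gapdh at 0.03 (0.931) and Hk2 at -0.01 (0.977) in NRF1 KD, each by limma. The 37 genes took 3.29 and 3.16% of recovered reads in WT con, 3.16, 3.24 and 3.04% in NRF1 KD and 2.97, 2.82 and 2.88% in double KD. The 3 double KD libraries lay below the other 5. Aldoa alone took 1.618 and 1.485% in WT con, 1.307, 1.372 and 1.301% in NRF1 KD and 1.288, 1.175 and 1.146% in double KD. By role, only upper glycolysis, which includes Aldoa, took a smaller share in every double KD library than in WT con. The shares of the other roles overlapped between double KD and WT con. Upper glycolysis was also smaller in every NRF1 KD library (1.518 to 1.593 against 1.697 and 1.816% in WT con). In NRF1 KD, lower glycolysis (0.743 to 0.846 against 0.7 and 0.718%) and pyruvate and NADH (0.309 to 0.352 against 0.282 and 0.289%) took larger shares. The remaining roles overlapped there.

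Of 50 other pathway genes tested, 7 rose and 1 fell in NRF1 KD and 2 rose and 1 fell in double KD. Over all genes 7.58% were called higher and 3.72% lower in NRF1 KD, and 2.39% and 1.7% in double KD. The double KD counts are near that background. Tbc1d4 (AS160) and Tbc1d1 are related proteins that restrain GLUT4 movement to the surface, and they were called in opposite directions in both groups. Tbc1d4 stood at 169 and 167 in WT con, 385, 299 and 368 in NRF1 KD and 392, 246 and 328 in double KD (1.05, adjusted p = 0.0107, and 0.91, adjusted p = 0.0356). Tbc1d1 stood at 4732 and 4539 in WT con, 3330, 3289 and 3078 in NRF1 KD and 3394, 3146 and 3686 in double KD (-0.52, adjusted p = 0.00935, and -0.45, adjusted p = 0.033). No knockdown library overlapped WT con for either gene. The NRF1 KD calls were lost without WT con library 2 (adjusted p = 0.0604 for Tbc1d4 and 0.0703 for Tbc1d1), and that of Tbc1d4 also without NRF1 KD library 3 (0.0501). The double KD calls held in 1 of the 5 settings without a library, with adjusted p from 0.0667 to 0.177 for Tbc1d4 and from 0.0595 to 0.202 for Tbc1d1 in the other 4. Slc16a3, the lactate exporter that fell on denervation, stood at 908 and 1009 in WT con and at 1522, 1605 and 1411 in NRF1 KD (0.66 ± 0.12, adjusted p = 0.009, and 0.0711 without WT con library 2).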

How the data were processed

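RNA was extracted with TRIzol and libraries were made with a SMARTER mRNA-Seq kit, per the labels' protocols. GRCm38 and mm10 are named in the submitters' processing notes. For aligner, counter, annotation and strandedness the entry is: not given in the sources used here. Members that overlap another coding gene (Pfkm, Pfkp, Pfkfb1, Aldoa, Tpi1, Gapdh, Pdha1, Phkg1 and Gys1) or have named processed pseudogenes (Aldoa, Gapdh, Pgk1, Pgam1 and Ldha) are therefore less certain. The first set's deposited values were raw counts per gene. The second set's deposited values were the authors' DESeq2 variance-stabilised log2 values, beside their log2 fold changes, score (Wald statistic), p-value and mean signal columns. These values were inverted to normalised counts, which matched the authors' deposited mean within 3.34e-07%, and 100.0% of the recovered reads were within 0.05 of a whole number. The unit differed from the assumed counts, so edgeR on those reads was an alternative.

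Counts were tested with edgeR 4.0.16 (TMM, filterByExpr, quasi-likelihood) in 1 fit of 9 libraries, and the second set with limma 3.58.1 (trend, pseudocount 1.0). R was 4.3.3, DESeq2 1.42.0 and scipy 1.17.1. The sets were tested apart, and the main edgeR and limma tests were tried on simulated data. First-set libraries are numbered by ascending column number. Of 23 labelled samples, 17 had values; 6 were not analysed here. Members called by a test were described by role, with up to 4 other pathway genes a direction for denervation and 2 elsewhere, by smallest adjusted p; 1 of these is not reported here. The members and lists were chosen with earlier results of these data known.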

Additional observations from a re-analysis of the deposited data

How the results depend on the processing

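For denervated against innervated WT muscle, 18 of the 23 lower members and Slc2a1 kept their call under every alternative run, and Gpi1, Pfkfb3, Phkb, Pdha1 and Gys1 did not. Against innervated muscle 21 of 27 lower calls in PAX4 KO were kept, and those of Gpi1, Pfkfb4, Pdha1, Pdhb, Gys1 and Ugp2 were not. Scaling by total counts in place of TMM shifted the median log2 fold change of all genes to 0.333 and called 5484 genes higher and 1047 lower, against 2661 and 2549, with 5 members higher and 18 lower. For PAX4 KO against innervated muscle it shifted the median to 0.538 and called 8337 and 1068 genes, against 3522 and 2935, with 8 members higher and 21 lower. It turned the signs of Hk1 (0.022), Hk2 (0.069), Pfkp (0.141), Ldhb (0.166), Pdk4 (0.173) and Pdhb (0.078) in denervated WT and of Pfkfb4 (0.038), Pdhb (0.092) and Ldhb (0.276) in PAX4 KO. Hk2 in PAX4 KO, not called, was at -0.013 with DESeq2's size factors, at -0.011 with DESeq2 and from -0.112 to 0.164 without single libraries. Without single libraries Ldhb ranged from -0.254 to 0.016 (without innervated library 2), Pdk4 from -0.298 to 0.198 (without innervated library 3) and Hk2 to Hk1 from -0.039 (without denervated library 2) to 0.193. Without both libraries that stood apart Ldhb was at 0.093. The setting without both libraries was chosen after seeing the data.

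Leaving out single libraries gave 1 to 3 members higher in denervated WT, 0 to 3 higher in NRF1 KD, 0 to 1 higher and 0 to 1 lower in double KD against WT con, and 0 to 2 lower in double KD against NRF1 KD. In PAX4 KO against denervated WT, 1 member was higher and 3 lower without the filter on low counts, and 1 and 2 with DESeq2. The share of all genes called in these settings is not reported here. With only the compared groups fitted, 1 member was lower in NRF1 KD, 0 were higher in double KD, and 1 was lower in double KD against NRF1 KD. None of the 4 NRF1 KD calls or the 1 double KD call held under all alternatives.

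Libraries of the WT groups share column numbers, which the labels do not explain. The correlations of their deviations were 0.203, 0.049 and 0.318 for the same number. Between innervated and denervated WT libraries of different numbers they ran from -0.252 to 0.019. Among denervated WT libraries, each innervated library thus correlated most with that of its number. Deviations within a group sum to 0, so a high correlation lowers the others and the values are not independent. PAX4 KO libraries, which share no number with WT, ran from -0.267 to 0.183 with innervated and from -0.212 to 0.287 with denervated WT libraries. Pairing is possible, but these correlations cannot settle it. The main fit took no pairing. With these numbers as a replicate block, 2 members were higher and 22 lower on denervation. In the second set same-numbered libraries correlated between -0.219 and 0.141, and the block left 1 member higher in NRF1 KD and 0 in double KD. Where the cause of a change is not plain from the setting, the cause was not tested. Without more than 2 or 3 libraries a group, exact tests of single values cannot pass 0.05.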
